A study of Homo sapiens with 18 samples.

Results

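The 7 genes described here encode the inhibitors of cyclin-dependent kinases (CDKs), and they were taken as 7 of the 55765 gene rows of the deposited table of normalized counts by their symbols, CDKN1A, CDKN1B, CDKN1C, CDKN2A, CDKN2B, CDKN2C and CDKN2D. The RNA came from G401, a malignant rhabdoid tumour cell line, in 18 libraries that form 6 groups of 3 biological replicates. The control line, labelled WT, was edited at the AAVS1 safe harbour site, and E1 and F2 are each a single clone in which both RB1 alleles were disrupted with CRISPR/Cas9, so that a difference of a clone from WT cannot be told apart from differences between single clones. Each line was kept for 11 days in 10 µM tazemetostat, which inhibits EZH2, the methyltransferase of histone H3 lysine 27, or in an equal volume of the solvent DMSO. All 6 groups share the loss of SMARCB1 that defines rhabdoid tumours: SMARCB1 had 0 reads in each library, which allows up to 3 reads, while VIM and SMARCA4 were expressed throughout.

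CDK inhibitors fall into 2 families. The INK4 proteins, p16INK4a from CDKN2A, p15INK4b from CDKN2B, p18INK4c from CDKN2C and p19INK4d from CDKN2D, are built of ankyrin repeats and bind CDK4 and CDK6, which keeps these kinases from cyclin D and so keeps the RB1 protein in the state that holds E2F transcription factors back. The CIP/KIP proteins, p21 from CDKN1A, p27 from CDKN1B and p57 from CDKN1C, bind cyclin-CDK complexes more broadly, above all those of CDK2. The locus of CDKN2A and CDKN2B is a classic target of Polycomb repression, to which EZH2 contributes, and CDKN1A is a classic gene of growth arrest after DNA damage.

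Libraries held 25709489 to 39314860 reads. Over all genes the 3 E1 DMSO libraries differed from each other more than the replicates of any other group, with a chi-square per degree of freedom of 29.7 to 61.9 for their pairs against 2.32 to 21.4 for pairs in the other groups, where sampling noise alone gives about 1. RB1 transcript, the targeted gene, lay between 505 and 1045 normalized counts in the 12 clone libraries and between 2300 and 2828 in the 6 WT libraries, without overlap. Of 8 marker genes of leukocytes, endothelium, epithelium and red cells, 7 were in the table and their summed level was 8.93 to 41.6 normalized counts per library. HBB had 0 reads in each library, PTPRC and CD3E had at most 2, CD14 at most 4, EPCAM had 1 to 19, and CDH5 had up to 29 and was highest in F2 with tazemetostat. The part of such cells in the results was not tested. In bulk RNA, fewer cells of a kind and less RNA per cell cannot be told apart.

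The promoter sequences of the INK4 genes that moved most are given here because CDKN2A and CDKN2B rose with tazemetostat while CDKN2C fell in WT. RefSeq start sites (GRCh38.p14) matched 6 of the 7 genes and gave 9 promoters, of which the 250 bases before the start were used. CDKN2A has 2 starts on chromosome 9, the upstream start of the transcript for p14ARF and the downstream start of the transcript for p16INK4a. CDKN2C has 3 starts, and the one with the most CpG dinucleotides is printed. The counts are per gene, so these transcripts could not be told apart. Capitals mark GC boxes (GGGCGG on either strand).
CDKN2B, chr9:22009306-22009555, minus strand: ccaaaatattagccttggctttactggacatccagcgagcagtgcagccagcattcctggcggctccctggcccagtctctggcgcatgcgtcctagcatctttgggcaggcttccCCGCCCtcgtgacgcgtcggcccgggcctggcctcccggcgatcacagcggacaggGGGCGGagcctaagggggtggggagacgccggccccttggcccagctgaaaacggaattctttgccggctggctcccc
CDKN2A upstream start, chr9:21995325-21995574, minus strand: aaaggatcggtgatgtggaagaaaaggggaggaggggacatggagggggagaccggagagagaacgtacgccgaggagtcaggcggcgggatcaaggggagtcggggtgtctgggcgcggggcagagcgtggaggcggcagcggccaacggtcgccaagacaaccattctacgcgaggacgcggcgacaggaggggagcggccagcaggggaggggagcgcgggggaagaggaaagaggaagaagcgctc
CDKN2A downstream start, chr9:21974858-21975107, minus strand: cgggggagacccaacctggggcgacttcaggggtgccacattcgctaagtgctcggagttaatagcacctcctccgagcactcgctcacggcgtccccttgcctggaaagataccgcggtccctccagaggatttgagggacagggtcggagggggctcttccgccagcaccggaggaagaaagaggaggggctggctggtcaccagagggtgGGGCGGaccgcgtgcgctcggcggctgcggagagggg
CDKN2C, the second of 3 starts, chr1:50968456-50968705, plus strand: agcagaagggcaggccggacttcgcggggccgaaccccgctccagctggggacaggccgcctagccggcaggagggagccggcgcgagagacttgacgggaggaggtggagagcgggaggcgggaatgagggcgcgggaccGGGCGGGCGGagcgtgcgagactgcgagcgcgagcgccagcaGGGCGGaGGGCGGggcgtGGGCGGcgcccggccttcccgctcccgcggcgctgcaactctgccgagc
These windows held 18 CpG dinucleotides in CDKN2B, 24 and 20 at the starts of CDKN2A and 35 at this start of CDKN2C, against a median of 11 over 35116 promoters. GC boxes were matched 2 times in CDKN2B, 0 times and 1 time in CDKN2A and 5 times in CDKN2C, and 42.6% of all promoters held at least 1. The other CDKN2C starts held 7 and 10 CpG dinucleotides, below that median, and 0 and 1 GC boxes. The E2F motif letters TTTCGCGC or TTTGGCGC, searched on both strands, were in none of the 9 windows of these genes and in 0.968% of all promoters. A match or its absence is a description of these letters in this window only.

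All 7 genes passed the filter of a mean of at least 10 normalized counts. The order of the groups differed from gene to gene. CDKN2A and CDKN2B stood highest in tazemetostat, CDKN1A in E1, CDKN2D in WT with tazemetostat and CDKN2C in F2 with DMSO. The highest group mean was 3014 normalized counts for CDKN1B, in E1 with DMSO, and 57.6 for CDKN1C, in F2 with DMSO. Genes are called past the threshold at a limma adjusted p (Benjamini-Hochberg over 16154 tested genes) under 0.05 together with a log2 change of at least 1 in size. All log2 changes are on the log2(normalized count + 1) scale. After scaling all libraries to 1 common total the median of all genes moved from 0.03 to -0.12 for tazemetostat in WT, from 0.00 to 0.14 for F2 against WT in tazemetostat and from 0.01 to 0.13 for the response of F2 against WT.

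**Figure D1:**
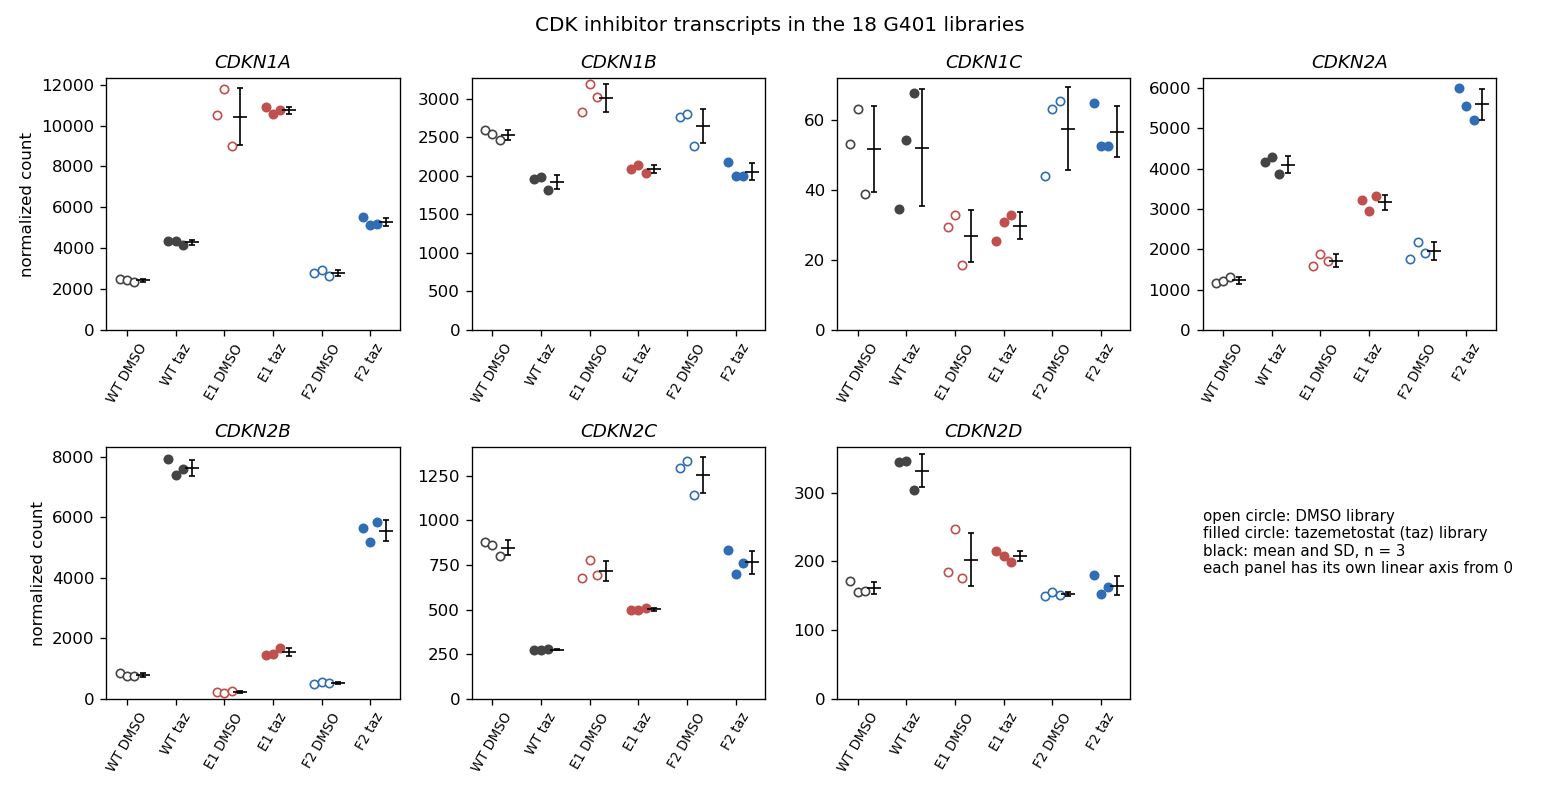
Normalized counts (vertical axis, linear from 0, own scale per gene) of the 7 CDK inhibitor genes in the 18 libraries, by line and treatment (horizontal axis). Circles are libraries, open for DMSO and filled for tazemetostat, and black marks are the mean and SD of 3. CDKN2B reaches 7393 to 7916 in WT with tazemetostat, and CDKN1A is at 8991 or more in every E1 library.

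The first question was how the CDK inhibitor genes respond when EZH2 is inhibited. In WT, 4 of 7 members were past the threshold, CDKN2A, CDKN2B and CDKN2D higher and CDKN2C lower, where 21.3% of all tested genes were past it (14.5% higher and 6.77% lower). In E1 only CDKN2B was past it, 1 of 7, with 15.1% of all genes past it (11.3% higher and 3.78% lower). In F2 CDKN2A and CDKN2B were past it, 2 of 7, with 17.0% of all genes (13.3% higher and 3.71% lower). By the adjusted p alone, without the limit on size, 6 members differed in WT against 64.2% of all genes, 4 in E1 against 46.8%, and 5 in F2 against 52.2%.

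CDKN2B, whose product p15INK4b blocks CDK4 and CDK6, rose in all 3 lines. In WT its 3 DMSO libraries held 870.0, 753 and 770.3 normalized counts and its tazemetostat libraries 7916, 7393 and 7599.5. The E1 libraries went from 245, 202 and 259 to 1451, 1472 and 1695, and the F2 libraries from 486, 575 and 519 to 5639, 5184 and 5847. Every treated library lay above every DMSO library of its line, and the E1 libraries were the lowest of the 3 lines in either treatment. The group means differed 9.57-fold in WT, 6.55-fold in E1 and 10.6-fold in F2. On the log2 scale WT changed by 3.26, E1 by 2.71 and F2 by 3.40, each ± 0.09 (SE), and the limma adjusted p were 8.65e-16, 1.25e-14 and 4.17e-16.

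CDKN2A, which yields both p16INK4a and the MDM2 inhibitor p14ARF, rose in WT and F2. Its libraries held 1155, 1221 and 1316 normalized counts in WT with DMSO and 4163, 4280 and 3858 with tazemetostat. In F2 they went from 1762, 2190 and 1904 to 6000.2, 5569 and 5223, and in E1 from 1579, 1884 and 1699 to 3221, 2953 and 3324. The treated and untreated libraries did not overlap in any line, and the treated F2 libraries were the highest of all. WT changed by 1.74 ± 0.09 (SE, log2) and F2 by 1.52 ± 0.09, and the limma adjusted p were 2.35e-12 and 1.71e-11. In E1 the difference was 0.88 ± 0.09 with an adjusted p of 6.44e-08, under the limit of 1, and its 95% interval of 0.70 to 1.06 included that limit.

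CDKN2C, whose product is p18INK4c, fell in WT. The WT libraries held 878, 863 and 798 normalized counts with DMSO and 273, 275 and 282 with tazemetostat, so that the mean fell by 67.3%. In E1 they held 675, 780.0 and 693 with DMSO and 500.4, 495 and 508 with tazemetostat, and in F2 1291, 1331 and 1142 against 833, 699 and 759. Treated libraries lay below untreated ones in each line, and the treated WT libraries were the lowest of all 18. WT changed by -1.61 ± 0.08 (SE, log2, limma adjusted p 3.27e-12). The difference was -0.51 ± 0.08 (3.69e-05) for E1 and -0.72 ± 0.08 (4.62e-07) for F2, both under the limit on size.

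CDKN2D, whose product is p19INK4d, rose in WT from 171, 156 and 157 normalized counts to 345, 346 and 304. Its libraries lay between 176 and 247 in E1 and between 149.6 and 179.6 in F2, with treated and untreated libraries overlapping in both clones. The log2 change in WT was 1.03 ± 0.12 (SE, limma adjusted p 4.46e-07), and 0.88 after scaling to 1 common total, which ended the call. In E1 it was 0.05 ± 0.12 and in F2 0.11 ± 0.12, with adjusted p of 0.758 and 0.463 and 95% intervals of -0.20 to 0.30 and -0.14 to 0.36.

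Among the CIP/KIP genes, none was past the threshold with tazemetostat in any line. CDKN1A, encoding p21, was higher in WT, at 4329, 4364 and 4161 normalized counts against 2495, 2461 and 2331, and in F2, at 5519, 5156 and 5185 against 2786, 2928 and 2662. These groups did not overlap, but the log2 differences stayed under the limit on size: WT differed by 0.82 ± 0.07 (SE) and F2 by 0.92 ± 0.07, the limma adjusted p being 1.53e-08 and 3.43e-09. In E1 the treated libraries, at 10891, 10559 and 10771, fell within the range of the DMSO libraries, at 10527, 11784 and 8991, and the log2 difference was 0.05 ± 0.07 (adjusted p 0.613, 95% interval -0.11 to 0.21).

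CDKN1B, encoding p27, was lower with tazemetostat by a modest amount in each line. Its group means went from 2535 ± 66 to 1921 ± 94 normalized counts in WT, from 3014 ± 181 to 2089 ± 49 in E1 and from 2649 ± 223 to 2054 ± 106 in F2 (SD, n = 3). No treated library reached the lowest DMSO library of its line. The log2 differences were -0.40, -0.53 and -0.36, each ± 0.07 (SE), with limma adjusted p of 4.17e-05, 2.49e-06 and 0.000151, all under the limit on size.

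CDKN1C, the imprinted gene for p57, was the scarcest member, with 19 to 67 reads per library. Its mean was 51.7 ± 12 normalized counts in WT with DMSO and 52.2 ± 17 with tazemetostat, 26.9 ± 7.5 and 29.8 ± 3.8 in E1, and 57.6 ± 12 and 56.8 ± 7.2 in F2 (SD, n = 3). Treated and untreated libraries overlapped in all 3 lines. The limma 95% interval of the log2 difference ran from -0.56 to 0.54 in WT, from -0.38 to 0.72 in E1 and from -0.56 to 0.54 in F2, so smaller differences were not detectable at this depth.

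**Figure D2:**
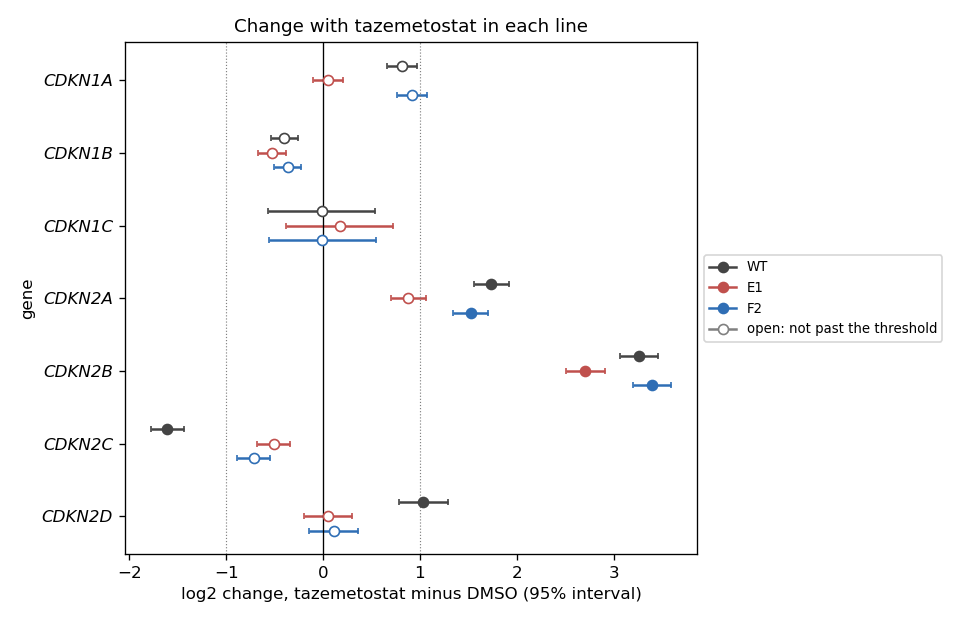
Log2 change with tazemetostat (horizontal axis, points with 95% intervals) for each gene (vertical axis) in WT, E1 and F2; dotted lines mark the limit of 1 in size and filled points are past the threshold. CDKN2B lies at 2.71 to 3.40 in all 3 lines, and CDKN2C and CDKN2D are past the threshold in WT.

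To compare levels between genes, normalized counts were divided by exon length in kb, taken from GENCODE v29 by symbol. Per length, CDKN1A and CDKN1B were nearly equal in WT with DMSO, at 968 ± 35 and 954 ± 25 per kb (SD, n = 3), and made up 33.4% and 32.9% of the summed level of the 7 members. CDKN2A followed at 389.9 ± 26, then CDKN2C at 255 ± 13, CDKN2B at 198 ± 16, CDKN2D at 107 ± 5.7 and CDKN1C at 26.6 ± 6.3. With tazemetostat in WT, CDKN2B led at 1893 ± 65 per kb, ahead of CDKN1A at 1708 ± 43 and CDKN2A at 1299 ± 69, and CDKN2C dropped to 83.4 ± 1.4 per kb. The share of the INK4 family in the sum went from 32.8% ± 0.78 to 58.7% ± 0.49 in WT and from 36.5% ± 1.3 to 54.5% ± 0.25 in F2.

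In E1 the sum was dominated by CDKN1A in either treatment, at 4159 ± 557 per kb with DMSO and 4281 ± 67 with tazemetostat, or 66.3% and 63.4% of the 7 members. The INK4 share in E1 was 15.3% ± 1.0 with DMSO and 24.8% ± 0.88 with tazemetostat. The summed level of all members per kb was 2899 ± 65 in WT with DMSO and 3368 ± 212 in F2 with DMSO, against 6261 ± 655 in E1 with DMSO, and among the treated groups WT had 5954 ± 162, E1 6756 ± 121 and F2 6399.7 ± 282. These shares depend on the exon models used for length and are given as levels, with no test.

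**Figure D3:**
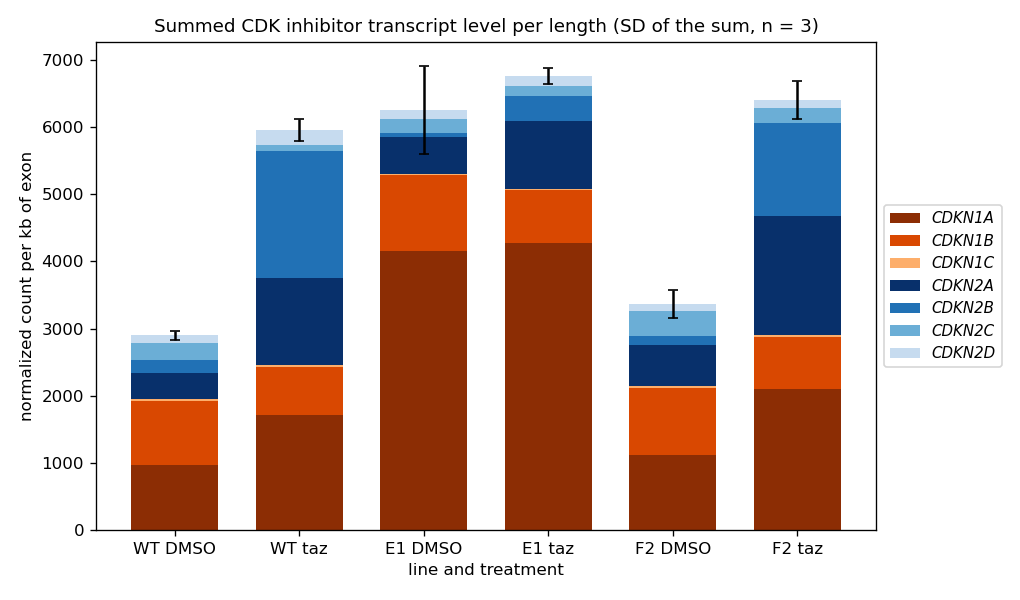
Summed level of the 7 genes per kb of exon (vertical axis, from 0) in the 6 groups (horizontal axis), stacked by gene, with the SD of the sum over 3 libraries. The CIP/KIP genes are in browns and the INK4 genes in blues: CDKN1A takes 66.3% and 63.4% of the E1 bars, and CDKN2B takes 31.8% of the bar of WT with tazemetostat.

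The next question was how the clones differ from WT in the absence of tazemetostat. E1 in DMSO had CDKN1A higher and CDKN2B lower than WT past the threshold, 2 of 7 members against 5.04% of all tested genes (2.35% higher and 2.69% lower), and 6 of 7 by the adjusted p alone, against 23.2%. F2 had 0 of 7 past it by limma, against 2.98% of all genes (0.885% higher and 2.09% lower), and 3 of 7 by the adjusted p alone, CDKN2A, CDKN2B and CDKN2C, against 20.2%. For F2 edgeR and DESeq2 on the recovered reads also called 0, and 4 members had an unadjusted limma p under 0.05.

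CDKN1A stood at 10434 ± 1399 normalized counts (SD, n = 3) in E1, 2429 ± 87 in WT and 2792 ± 133 in F2. The 3 E1 DMSO libraries, which also stood apart from each other over all genes, spread more than those of any other group. The lowest of them, at 8991, was still above every WT and F2 library of either treatment. The log2 difference from WT was 2.09 ± 0.07 (SE, limma adjusted p 2.26e-13) in E1 and 0.20 ± 0.07 (adjusted p 0.0641) in F2, and E1 was higher than F2 by 1.89 ± 0.07 (adjusted p 5.56e-13). Leaving out any 1 library, those of E1 DMSO included, gave 2.00 to 2.20 for CDKN1A in E1 against WT and -1.84 to -1.66 for CDKN2B. Over all alternative fits the highest limma adjusted p of CDKN1A was 0.000638 for E1 against WT and 0.000656 for E1 against F2.

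CDKN2B was lowest in E1, at 235 ± 30 (SD, n = 3) against 798 ± 63 normalized counts in WT and 527 ± 45 in F2, and the 3 lines did not overlap. The log2 difference from WT was -1.76 ± 0.09 (SE, limma adjusted p 8.56e-11) in E1 and -0.60 ± 0.09 (0.000156) in F2, the latter under the limit on size. CDKN2A in DMSO was 1721 ± 154 in E1 and 1952 ± 218 in F2 against 1231 ± 81 in WT, with log2 differences of 0.48 and 0.66, under the limit, and adjusted p of 0.000385 and 2.28e-05. In DMSO CDKN2A and CDKN2B, neighbours on chromosome 9, differed from WT in opposite directions in both clones. CDKN2C was 1255 ± 99.6 normalized counts in F2, 846 ± 43 in WT and 716 ± 56 in E1, with log2 differences from WT of 0.57 ± 0.08 (adjusted p 6.79e-05) in F2 and -0.24 ± 0.08 (0.0378) in E1.

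Between the clones in DMSO, 3 of 7 members were past the threshold, CDKN1A higher and CDKN1C and CDKN2B lower in E1, against 7.56% of all genes (4.05% higher and 3.52% lower), and 6 of 7 by the adjusted p alone, against 37.1%. The call of CDKN1C rested on single libraries. Its E1 libraries held 29.5, 32.8 and 18.5 normalized counts and its F2 libraries 44.1, 63.3 and 65.5, a log2 difference of -1.09 ± 0.26 (SE, limma adjusted p 0.00311) without overlap. Without E1 DMSO replicate 3 it was -0.85 (adjusted p 0.018), without F2 DMSO replicate 3 it was -0.98 (0.0167), with a pseudocount of 5 it was -0.98, and with only these 2 groups in the fit the adjusted p was 0.0514, each of which ended the call. Against WT, CDKN1C in E1 was lower by a log2 difference of -0.93 ± 0.26 (adjusted p 0.0146), which passed the limit on size without WT DMSO replicate 3 (-1.12), E1 DMSO replicate 1 (-1.01) or E1 DMSO replicate 2 (-1.09).

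Under tazemetostat, E1 again had CDKN1A higher and CDKN2B lower than WT, 2 of 7 members against 11.3% of all genes (5.40% higher and 5.95% lower), and 6 of 7 by the adjusted p alone, against 51.8%. F2 had CDKN2C higher and CDKN2D lower, 2 of 7 against 12.3% (7.31% higher and 4.97% lower), and 5 of 7 by the adjusted p alone, against 53.1%. CDKN1A was 10740.3 ± 168 normalized counts in E1, 4285 ± 108 in WT and 5287 ± 201 in F2 (SD, n = 3), a log2 difference of 1.33 ± 0.07 (SE, limma adjusted p 1.02e-10) for E1 against WT. CDKN2B was 1539 ± 135 in E1, 7636 ± 264 in WT and 5557 ± 339 in F2, a difference of -2.31 ± 0.09 (adjusted p 2.03e-12) for E1 and -0.46 ± 0.09 (0.000456) for F2. CDKN2A differed from WT by -0.37 ± 0.09 (0.00139) in E1, the same direction as CDKN2B. In F2 it differed by 0.45 ± 0.09 (0.00026), the opposite direction, and both CDKN2A values were under the limit on size. E1 and F2 differed in CDKN1A and CDKN2B, 2 of 7 members against 6.82% of all genes (2.39% higher and 4.43% lower), and 6 of 7 by the adjusted p alone, against 34.5%. The differences were 1.02 ± 0.07 and -1.85 ± 0.09, with adjusted p of 6.86e-09 and 5.69e-11. After scaling to 1 common total the former was 0.94 and was no longer past the limit. Without WT tazemetostat replicate 1, CDKN1C was also past the threshold in E1, at -1.01.

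CDKN2C, which fell in WT, was at 764 ± 67 normalized counts in F2 and 501 ± 6.4 in E1 with tazemetostat, against 277 ± 4.7 in WT (SD, n = 3), and no libraries of the 3 lines overlapped. The log2 difference from WT was 1.46 ± 0.08 (SE, limma adjusted p 7.93e-11) in F2 and 0.85 ± 0.08 (9.35e-08) in E1. CDKN2D was 165 ± 14 in F2 and 208 ± 7.7 in E1 against 332 ± 24 in WT. Its difference of -1.004 ± 0.12 (adjusted p 1.41e-06) in F2 lay at the limit on size: without WT tazemetostat replicates 1 or 2 it was -0.98 and -0.97, without F2 tazemetostat replicates 2 or 3 it was -0.949 and -0.997, and with edgeR -0.997, each under the limit. In E1 the difference was -0.67 ± 0.12 (0.000135).

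**Figure D4:**
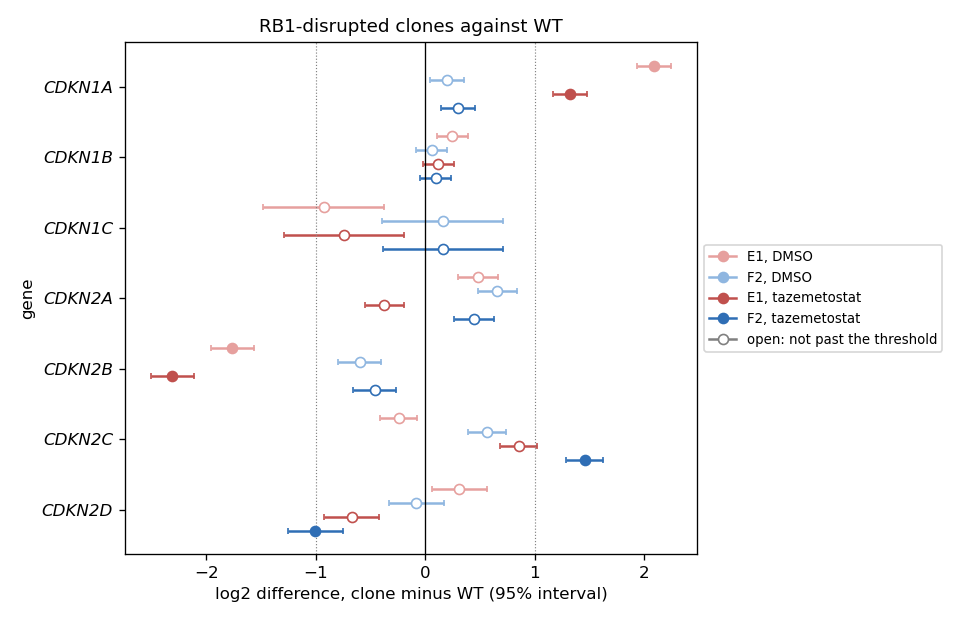
Log2 difference of E1 and F2 from WT (horizontal axis, points with 95% intervals) for each gene (vertical axis) in DMSO (pale) and tazemetostat (dark); dotted lines mark the limit of 1 in size and filled points are past the threshold. CDKN1A lies at 2.09 and 1.33 in E1, and CDKN2B at -1.76 and -2.31.

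The third question was whether the response to tazemetostat itself differed between lines, tested as the log2 change in a clone minus that in WT. Of the members, 1 of 7 was past the threshold for E1, CDKN2C, against 10.0% of all genes (4.79% higher and 5.21% lower), and 5 of 7 by the adjusted p alone, against 35.4%. For F2 0 of 7 were past it by limma, edgeR and DESeq2, against 7.48% of all genes (4.82% higher and 2.66% lower), with an unadjusted limma p under 0.05 for 2 members. By the adjusted p alone 2 of 7 differed, against 26.9%. After scaling to 1 common total CDKN2C was past the threshold in F2, at 1.02. E1 and F2 share the WT libraries in these comparisons, and their values are set side by side. For CDKN2C the difference in response was 1.10 ± 0.12 (SE, limma adjusted p 8.53e-07) in E1 and 0.89 ± 0.12 (1.28e-05) in F2. For CDKN2D it was -0.98 ± 0.17 (0.000196) in E1 and -0.92 ± 0.17 (0.000497) in F2. The E1 value of CDKN2D passed the limit on size with edgeR, at -1.003, with DESeq2, at -1.004, and without any of WT DMSO replicate 1 (-1.03), WT tazemetostat replicate 3 (-1.04), E1 DMSO replicate 1 (-1.04), E1 DMSO replicate 3 (-1.07) or E1 tazemetostat replicate 1 (-1.01).

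CDKN1A, CDKN2A and CDKN2B had responses that differed from WT in E1 by an adjusted p under 0.05 but under the limit on size. The differences were -0.77 ± 0.10 for CDKN1A, -0.85 ± 0.12 for CDKN2A and -0.55 ± 0.13 for CDKN2B (SE), with limma adjusted p of 1.68e-05, 2.61e-05 and 0.00344. In F2 they were 0.10, -0.21 and 0.14, with adjusted p of 0.513, 0.213 and 0.477 and 95% intervals of -0.12 to 0.32, -0.47 to 0.04 and -0.14 to 0.42. The same 3 genes differed between E1 and F2 in response, by -0.87, -0.64 and -0.69, with adjusted p of 9.33e-06, 0.00114 and 0.00129. No member was past the threshold with its limit on size between the clones (0 of 7 by limma, edgeR and DESeq2, against 5.81% of all genes, 1.78% higher and 4.02% lower, with 3 members under an unadjusted limma p of 0.05). By the adjusted p alone 3 of 7 differed, against 14.8%. CDKN1B and CDKN1C showed no detectable difference in response, with 95% intervals of -0.33 to 0.07 and -0.59 to 0.97 in E1 and -0.16 to 0.24 and -0.77 to 0.79 in F2.

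**Figure D5:**
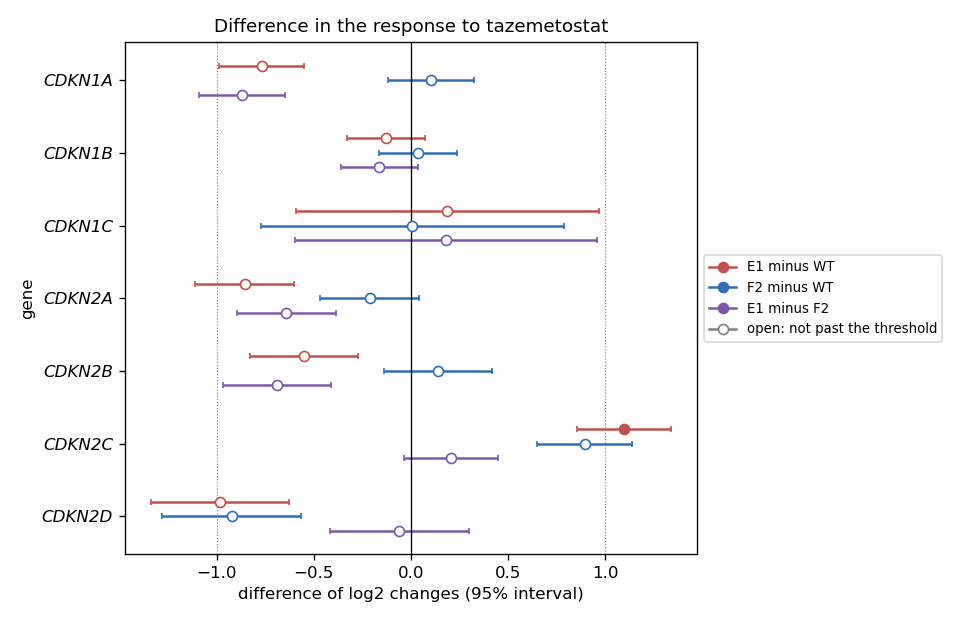
Difference of the log2 changes with tazemetostat between lines (horizontal axis, points with 95% intervals) for each gene (vertical axis); dotted lines mark the limit of 1 in size and the filled point is past the threshold. CDKN2C lies at 1.10 in E1 and 0.89 in F2, and CDKN2D at -0.98 and -0.92.

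The kinases and cyclins that these inhibitors bind were followed as a list of 11 genes, all tested. With tazemetostat in WT, 3 rose (CDK6, CCND1 and CCND2) and 4 fell (CDK2, CCNE2, CCNA2 and CCNB1), with a median log2 change of -0.68 against 0.03 for all tested genes, of which 14.5% rose and 6.77% fell. In E1 and in F2, 2 of 11 rose (CDK6 and CCND2) and 0 fell, where 15.1% and 17.0% of all genes were past the threshold, with medians of -0.03 and -0.01 against 0.02 and 0.02 for all genes. CDK6, a kinase that INK4 proteins bind, had at most 6 reads in any DMSO library and 2731 ± 102, 2834 ± 108 and 2849 ± 320 normalized counts with tazemetostat in WT, E1 and F2 (SD, n = 3). CDK4, the other such kinase, was 11347 ± 678 in WT with DMSO and 7065 ± 366 with tazemetostat, a log2 difference of -0.68 ± 0.08 (SE, limma adjusted p 5.87e-07) that stayed under the limit. CCND2, for cyclin D2, went from 30.0 ± 0.63 to 11139.5 ± 393 normalized counts in WT, from 9.35 ± 4.7 to 5118 ± 306 in E1 and from 32.7 ± 4.5 to 6558 ± 145 in F2.

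CDK2 and CCNE2, which encode the kinase and a cyclin of the complex that CIP/KIP proteins inhibit, fell in WT, with log2 changes of -1.25 ± 0.06 and -1.37 ± 0.08 (SE, limma adjusted p 1.17e-12 and 5.55e-11). CCNE1, the other cyclin E gene of the list, did not fall in WT, at 1110 ± 21 normalized counts with DMSO and 1129 ± 57 with tazemetostat (SD, n = 3). In the clones the log2 difference of CDK2 was -0.07 ± 0.06 in E1 and -0.33 ± 0.06 in F2, and that of CCNE2 -0.18 ± 0.08 and -0.01 ± 0.08, none past the threshold. The response of CDK2 differed from WT by 1.19 in E1 (adjusted p 7.86e-09) and by 0.93 in F2 (2.31e-07, under the limit), and that of CCNE2 by 1.20 and 1.36 (4.82e-07 and 1.68e-07). CCNE2 was also higher in E1 than in WT with DMSO, at 1354 ± 131 against 559 ± 33 normalized counts (SD, n = 3), while F2 had 552 ± 26.

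Of 13 pocket protein, E2F and DP genes, the factors downstream of the inhibitors, 3 fell in WT with tazemetostat and 0 rose. These were RBL1, E2F2 and E2F8, where 6.77% of all genes fell and 14.5% rose. In E1 only E2F2 fell, 1 of 13, where 3.78% of all genes fell and 11.3% rose. In F2 E2F2 and TFDP2 fell and E2F7 rose, where 3.71% of all genes fell and 13.3% rose. The list medians were -0.40, 0.07 and -0.15 in WT, E1 and F2, against 0.03, 0.02 and 0.02 for all genes. E2F7, a repressor among the E2F factors, was 469 ± 11 normalized counts in F2 with DMSO and 2766 ± 63 with tazemetostat, against 495 ± 18 and 615 ± 36 in WT and 1159 ± 171 and 2074 ± 72 in E1 (SD, n = 3).

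Of 12 genes that turn over CIP/KIP proteins, 2 fell in WT with tazemetostat and 0 rose. These were DTL, the substrate receptor that marks p21 for degradation in S phase, and its partner PCNA. Of all genes, 6.77% fell and 14.5% rose in WT. In E1 and F2, where 15.1% and 17.0% of all genes were past the threshold, 0 of 12 were past the threshold by limma in either direction (3 and 6 at an unadjusted p under 0.05; edgeR and DESeq2 called 0). DTL stood at 2614 ± 67 and then 1139 ± 49 normalized counts in WT (SD, n = 3), against 2199 ± 192 and 2141 ± 136 in E1 and 2443 ± 147 and 2323 ± 21 in F2. SKP2, the F-box protein that marks p27, had a log2 difference of -0.97 ± 0.07 (SE, limma adjusted p 1.02e-09) in WT. For E1 it was -0.38 ± 0.07 (0.00024) and for F2 -0.60 ± 0.07 (1.04e-06), all under the limit. The group means of SKP2 and CDKN1B were both lower with tazemetostat in each line.

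Of 19 genes listed as repressors of the INK4 locus, 18 were tested. Treated WT had 3 of them past the threshold, 1 higher and 2 lower, against 21.3% of all genes (14.5% higher and 6.77% lower). Treated E1 had 2, 1 higher and 1 lower, against 15.1% (11.3% and 3.78%), and so had treated F2, against 17.0% (13.3% and 3.71%). With tazemetostat BMI1, a Polycomb protein known to repress CDKN2A, fell in all 3 lines, from 12677 ± 536 to 5882 ± 358 normalized counts in WT, from 11401 ± 1274 to 4291 ± 363 in E1 and from 11232 ± 944 to 3844 ± 26 in F2 (SD, n = 3). Its log2 changes were -1.11, -1.41 and -1.54, each ± 0.08 (SE), with limma adjusted p of 8.21e-10, 3.08e-11 and 6.55e-12. EZH2 itself fell in WT, with a log2 change of -1.50 ± 0.07, but not past the threshold in E1 (-0.08 ± 0.07) or F2 (-0.27 ± 0.07), with response differences of 1.42 and 1.22 (adjusted p 5.29e-09 and 4.74e-08). TWIST1, a transcription factor of the same list of repressors, rose in each line. The list medians were -0.14, 0.09 and -0.04 in WT, E1 and F2, against 0.03, 0.02 and 0.02 for all genes.

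Of 20 listed genes of the response to DNA damage, 3 were higher in E1 than in WT with DMSO past the threshold, FAS, FDXR and DDB2, and 0 were lower, where 5.04% of all genes were past it. In F2 none of these 3 was past it. FDXR spread widely over the E1 libraries, at 1814, 2599.7 and 1187 normalized counts, in which CDKN1A was also highest in replicate 2 and lowest in replicate 3. DDB2, a DNA repair factor, was 3033 ± 136 normalized counts in E1, 1973 ± 20 in F2 and 1332 ± 108 in WT (SD, n = 3). MDM2, a ubiquitin ligase, was 6763 ± 582 in E1, 5163 ± 153 in F2 and 4398 ± 37 in WT, a log2 difference of 0.62 ± 0.06 (SE, limma adjusted p 7.95e-07) in E1 that stayed under the limit. With tazemetostat GDF15, FAS and BTG2 rose in WT, FAS in E1, and GDF15 and FAS in F2, and 0 fell. That was 3, 1 and 2 of 20, where 14.5%, 11.3% and 13.3% of all genes rose. These shares were near or below the background.

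Of 17 listed genes of the TGF-beta, FOXO, KLF and MYC inputs to these promoters, 15 were tested. With tazemetostat 5 rose in each line, where 14.5%, 11.3% and 13.3% of all genes rose in WT, E1 and F2. In F2 1 fell, SMAD3, where 3.71% of all genes fell, and in WT and E1 0 fell, against 6.77% and 3.78%. Of those that rose, FOXO1 and KLF4 did so in all 3 lines. TGFB1 rose in WT and E1, KLF6 in WT and F2, and TGFBR1 in E1 and F2.

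The genes beside the members on their chromosomes were followed as well, 14 of 16 being tested. With tazemetostat 3 rose and 0 fell in WT, where 14.5% of all genes rose and 6.77% fell. In E1 2 rose and 2 fell, against 11.3% and 3.78%. In F2 2 rose and 0 fell, against 13.3% and 3.71%. MTAP, a metabolic enzyme gene next to CDKN2A, was higher with tazemetostat by 0.99 ± 0.08 (SE) in WT and 0.95 ± 0.08 in E1, under the limit, and in F2 it rose by 1.19 ± 0.08. The limma adjusted p were 3.31e-09, 7.96e-09 and 2.4e-10. CDKN2B-AS1, the antisense transcript ANRIL, which can bind Polycomb proteins, was 41.0 ± 16 and 45.0 ± 7.5 normalized counts in WT with DMSO and tazemetostat, 38.8 ± 3.4 and 44.9 ± 11 in E1, and 73.2 ± 8.1 and 97.8 ± 11 in F2 (SD, n = 3). Its log2 differences with tazemetostat of 0.19, 0.19 and 0.41, each ± 0.23 (SE), were not past the threshold (limma adjusted p 0.493, 0.544 and 0.144). In GENCODE v29 the exons of CDKN2B-AS1 share 341 bases with CDKN2A on the opposite strand, or 10.8% of the CDKN2A exon length, and none with CDKN2B. The library kit was a stranded one. Whether the counting used the strand is not given in the sources used here. At 29.2 to 109.7 normalized counts CDKN2B-AS1 was far below every CDKN2A library. Near CDKN1C, PHLDA2, another imprinted gene, rose in all 3 lines, in WT from 35.0 ± 3.6 to 351 ± 33 normalized counts (SD, n = 3), from 54.5 ± 31 to 236 ± 34 in E1 and from 24.5 ± 12 to 199.8 ± 29 in F2. KCNQ1OT1, the antisense transcript of that imprinted cluster, ranged from 314 to 1221 normalized counts within WT with DMSO alone, and its differences with tazemetostat had adjusted p of 0.539, 0.213 and 0.752.

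The genes whose log2 levels followed a member most closely over the 18 samples were ranked by Pearson's r among 12983 other genes with a mean of at least 50 normalized counts, for the 6 members whose group means spanned at least 1 on the log2 scale. These correlations are descriptions over samples that share groups. CDKN1A was followed by BAX (r = 0.973), which promotes apoptosis, then HOXB6 (0.965) and PSMB9 (0.962). CDKN2B was followed by CD55 (0.978), BAI1 (0.975) and CNN1 (0.972), and CDKN2A by CUX2 (0.973), SYNPO (0.968) and CITED2 (0.967). CDKN2C was followed by KANK2 (0.986), HIRIP3 (0.983) and XKR5 (0.980), and CDKN2D by GABARAPL2 (0.970), HMOX2 (0.964) and MIEF2 (0.963). The best match of CDKN1C was TPPP, at 0.888, and over 12984 genes none exceeded 0.95 for it, against 45 for CDKN2C and 43 for CDKN2B.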

How the data were processed

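Poly(A) RNA from 18 cultures was sequenced as paired reads from a stranded kit, per the labels' protocols. The deposited table holds a normalized signal per gene, that is read counts that the authors divided by a size factor per library; the submitters' processing notes name Trim Galore 0.4.4, STAR 2.6.0a, HTSeq, DESeq2 and hg19, and the strand setting and gene annotation are not given in the sources used here. Dividing by the smallest step of each library returned whole reads (tolerance 0.001), with size factors of 0.812 to 1.14.

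Genes with a mean of at least 10 (16154 of 55765) were tested on log2(value + 1) with limma 3.58.1 (R 4.3.3), in 1 fit of 6 group means with 12 contrasts and Benjamini-Hochberg adjustment within each. Calls needed an adjusted p under 0.05 together with a log2 difference of 1 or more in size. The test was checked on simulated data. edgeR 4.0.16 and DESeq2 1.42.0 on the recovered reads, other pseudocounts, filters and scalings, a replicate block and leaving out each library were the alternatives. Named were all 7 members, genes of the fixed lists, and for each member whose group means spanned at least 1 (log2) the 3 genes of mean at least 50 with the highest Pearson's r. Exon lengths came from GENCODE v29 and promoters from RefSeq GRCh38.p14, by symbol, since no hg19 annotation was used here. The members and lists were chosen with earlier results of these data known. The labels call the replicates biological. The limma p-values set a difference between groups against the spread of these replicates, pooled over the groups. They do not cover the spread between separate clones. Some genes of the lists are not reported here.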

Additional observations from a re-analysis of the deposited data

Results flagged for a closer look

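The change of CDKN2C with tazemetostat differed between E1 and WT by 1.10 ± 0.12 on the log2 scale (SE, limma adjusted p 8.53e-07), the difference between lines having been tested as an interaction in the fit. CDKN2C fell by 1.61 in WT, where treated and DMSO libraries did not overlap, and its log2 change in E1 was -0.51, also without overlap. Over the fits that left out 1 library the difference ranged from 1.06 to 1.16.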

How the results depend on the processing

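Of 2424 member values under the alternatives, 2329 kept their direction and their side of the threshold, 14 were no longer past it, 50 were newly past it, 38 of them without the limit on size, and 31 reversed, none with a main adjusted p below 0.613. Without the limit on size the count of members was 4 for tazemetostat in E1, 5 in F2, 6 for E1 against WT in DMSO, 3 for F2 against WT in DMSO, 6 for E1 against F2 in DMSO, 6, 5 and 6 for the same pairs in tazemetostat, and 5, 2 and 3 for the responses of E1 against WT, F2 against WT and E1 against F2. The count for F2 against WT in tazemetostat, 2 in the main fit, was 1 with a pseudocount of 5, the same total, TMM scaling or edgeR. The same total also gave 1 for E1 against F2 in tazemetostat and 1 for the response of F2 against WT. The response of E1 against WT had 2 with edgeR and with DESeq2. E1 against F2 in DMSO, 3 in the main fit, had 2 with a pseudocount of 5, with only the 2 groups in the fit and with a mean of at least 50, which leaves CDKN1C untested. Leaving out each library gave 1 to 2 for F2 against WT in tazemetostat and 1 to 2 for the response of E1 against WT. The causes were not tested.

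With the same total, the tazemetostat difference in E1 was -0.015 for CDKN1A and -0.013 for CDKN2D, and E1 against F2 in tazemetostat was -0.057 for CDKN1B. The response of CDKN1C in F2 against WT was -0.0093 with edgeR and -0.014 with DESeq2. Leaving out each library, values that reversed ranged from -0.053 to 0.14 for CDKN1A with tazemetostat in E1, from -0.036 to 0.076 for the CDKN1B response of F2 against WT, from -0.039 to 0.20 for CDKN2D with tazemetostat in E1 and from -0.15 to 0.092 for its response of E1 against F2. For CDKN1C they ranged from -0.22 to 0.25 with tazemetostat in WT, -0.066 to 0.33 in E1 and -0.19 to 0.095 in F2, from -0.031 to 0.34 for F2 against WT in DMSO and -0.10 to 0.38 in tazemetostat, and from -0.079 to 0.40, -0.26 to 0.22 and -0.059 to 0.36 for the responses of E1 against WT, F2 against WT and E1 against F2.

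The replicate block changed 0 calls of members, and with it the CDKN2C response of E1 against WT had a limma adjusted p of 2.7e-06. The numbers did not pair the samples: same-numbered deviations correlated between -0.30 and 0.38, every correlation was over 0.1 in 2 of 15 group pairs, and 8 of 18 samples correlated best with their own number. Depth limits CDKN1C, at 19 to 67 reads.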
